A study of Homo sapiens with 9 samples.

Results

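The 10 genes described here encode transcription factors of blood cells: SPI1, CEBPA, CEBPB, CEBPD, CEBPE, IKZF1, RUNX1, RUNX3, IRF8 and TBX21. They are 10 of the 57338 genes in the deposited table, and each symbol matched 1 Ensembl identifier. The genes were chosen by their measured levels, as leukocyte factors whose RPKM was high in the libraries labelled hPRM1 beside the empty vector, so their difference in that contrast, fitted values and counts of calls included, is given as a description, with no p-value and as support for nothing. The choice was not based on their levels in the hPRM2 libraries, which were tested against the same empty vector libraries. Earlier results of these data were known when the genes were chosen.

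Leukocytes acquire their identity from a small set of DNA-binding proteins that act together on shared enhancers. PU.1, the product of SPI1, and the C/EBP proteins drive the myeloid branch that ends in neutrophils and monocytes, with IRF8 turning progenitors towards monocytes and dendritic cells. IKZF1, RUNX3 and T-bet, the product of TBX21, are best known from lymphocytes, whereas RUNX1 is needed for blood stem cells to form at all. HEK293T, the human embryonic kidney line used here, is an adherent cell that is not of blood origin.

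All 9 RNA libraries were labelled as HEK293T. The cells had been transfected with pcDNA3.1 plasmids for EGFP alone (empty vector, 3 libraries), for EGFP fused to human protamine 1 (hPRM1, 3 libraries) or for EGFP fused to human protamine 2 (hPRM2, 3 libraries). After 3 days, living cells with a high EGFP signal were sorted, so by their labels all groups carry EGFP and a transient plasmid in 1 cell line, and whether the replicates were separate transfections is not given in the sources used here. If they were not, the spread between them is technical. Protamines are the small arginine-rich proteins that package DNA in sperm, and the study asked what they do to chromatin and transcription in somatic cells.

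The labels were first checked against the plasmid genes and cell type markers. PRM2 was at 71224, 60050 and 36130 RPKM in the 3 hPRM2 libraries and at 0 elsewhere. PRM1 was listed at 0 in all 9 libraries, and whether 3′ reads of the plasmid's transcript would fall in the annotated gene was not tested. The 3 libraries of that group are therefore named by their label. Of 14 genes typical of HEK293T cells, 13 were above 0 in each of the 3 empty vector libraries and 11 in each of the 3 hPRM2 libraries, against 5 in each of the libraries labelled hPRM1, where 8 were at 0 throughout (LIN28B, IGF2BP1, HMGA2, NEFM, NEFL, INA, PAX2 and LHX1). The summed level of these 14 genes was 277 to 340 RPKM in the empty vector, 352 to 598 RPKM in hPRM2 and 2.03 to 2.48 RPKM in the libraries labelled hPRM1. The HEK293T identity is therefore not seen in the markers of the libraries labelled hPRM1. Those libraries also carry another run of library numbers than the other 6, and for them a library batch cannot be told apart from the condition. In hPRM2, KRT8 (140 to 235 RPKM) and LHX1 (63.4 to 261 RPKM) made up most of the HEK293T sum. Of the 14 genes, 3 had a log2 difference from the empty vector above 0 in hPRM2. Their median was -0.98, beside -0.72 over all tested genes.

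Markers of blood cells moved with the transcription factors. In the libraries labelled hPRM1, 10 of 11 neutrophil markers were above 0 in all 3 libraries and summed to 3940 to 4647 RPKM, against 0.284 to 7.59 RPKM in the empty vector and 2.64 to 3.02 RPKM in hPRM2. FCGR3B, a defining neutrophil gene, was at 0 in all 9 libraries. All 6 monocyte markers were present in the libraries labelled hPRM1 and summed to 668 to 1071 RPKM (38.8 to 40.7 RPKM in the empty vector, where LYZ, FCN1, CSF1R and CD163 were at 0, and 16.0 to 46.5 RPKM in hPRM2). The 8 T cell markers summed to 270 to 432 RPKM there, the 6 NK cell markers to 446 to 714 RPKM and the 7 B cell markers to 68.7 to 80.6 RPKM. In the empty vector the same 3 lists reached at most 3.03, 0.384 and 1.68 RPKM, with CD3D, CD3E, NKG7, GNLY, MS4A1 and CD79A at 0. In hPRM2 the NK and B cell lists reached at most 0.0513 and 4.13 RPKM, and the T cell list summed to 33.3 to 71.0 RPKM, most of it from LCK (33.3 to 70.6 RPKM) while CD3D and CD3E were at 0. Eosinophil and basophil markers were at 0 in the empty vector, at most 0.646 RPKM in hPRM2 and 32.6 to 65.5 RPKM in the libraries labelled hPRM1, and platelet markers summed to 3.85 to 13.5, 0 to 2.25 and 320 to 564 RPKM in the same order. Erythroid markers, haemoglobin genes among them, summed to 2060241 to 2266408 RPKM in the libraries labelled hPRM1 and to at most 18.2 RPKM in any other library. The part of these cell types in the levels described below was not tested. In bulk RNA, fewer cells of a type and less RNA per cell cannot be told apart.

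Depth differed between the groups. Reads counted on genes, worked out from the spacing of low RPKM values, came to 7930000 to 10790000 in the empty vector, 4210000 to 5860000 in the libraries labelled hPRM1 and 1270000 to 2650000 in hPRM2. Up to 3 reads could hide behind a listed 0, or at most 0.378, 0.712 and 2.36 CPM in the 3 groups (CPM being RPKM without the division by length), so that a low transcript could escape detection most easily in hPRM2. Such limits and the Poisson intervals below cover counting error only.

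Upstream sequence was examined because PU.1, C/EBP, RUNX, IRF and T-box proteins all bind DNA and can occupy the starts of each other's genes. RefSeq (GRCh38.p14) start sites were found for 8 of the 10 genes, CEBPA, CEBPB, CEBPE, IKZF1, RUNX1, RUNX3, IRF8 and TBX21, with 13 windows of 250 bases before a start. The letters GAGGAA, the core read by PU.1, occurred on either strand in 4 of the 13 windows (CEBPE, IKZF1, RUNX1 and RUNX3), and in 23.6% of 35116 windows of all genes. TGTGGT, the RUNX letters, occurred in 3 of the 13 (IKZF1, RUNX3 and IRF8) and in 11.0% of all windows. The C/EBP letters TTGCNNAA occurred in 1 (IKZF1) and in 9.05% of all windows, and GAAANNGAA for IRF proteins in 1 (CEBPE) and in 6.88% of all windows, whereas GGTGTGA for T-box proteins (2.76% of all) was in 0 of the 13. No pair of these motifs contains the other, and a match describes letters, not an occupied site. The 3 windows below were picked as those that hold GAGGAA and no base of a GENCODE 29 exon. They are written 5′ to 3′ on the strand of the gene, with the match in capitals (TTCCTC being GAGGAA on the other strand).
IKZF1, chr7:50318798-50319047, plus strand, a start within the gene: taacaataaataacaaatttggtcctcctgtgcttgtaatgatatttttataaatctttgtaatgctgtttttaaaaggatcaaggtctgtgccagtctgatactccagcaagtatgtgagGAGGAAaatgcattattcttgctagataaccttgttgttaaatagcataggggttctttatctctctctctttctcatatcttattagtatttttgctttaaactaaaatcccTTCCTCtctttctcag
RUNX1, chr21:34888700-34888949, minus strand, also within the gene: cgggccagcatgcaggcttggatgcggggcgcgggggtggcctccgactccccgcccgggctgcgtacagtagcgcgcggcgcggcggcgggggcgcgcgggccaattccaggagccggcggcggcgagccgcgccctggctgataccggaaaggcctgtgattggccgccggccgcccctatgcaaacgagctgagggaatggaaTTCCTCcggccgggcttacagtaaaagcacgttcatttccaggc
RUNX3, chr1:24930277-24930526, minus strand, also within the gene: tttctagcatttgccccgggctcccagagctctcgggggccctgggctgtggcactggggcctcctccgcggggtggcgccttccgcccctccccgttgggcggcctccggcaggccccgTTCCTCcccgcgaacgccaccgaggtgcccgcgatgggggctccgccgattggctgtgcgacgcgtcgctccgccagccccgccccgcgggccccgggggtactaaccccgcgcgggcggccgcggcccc

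The matches lie 129 to 124 and 16 to 11 bases before the start in IKZF1, 44 to 39 bases before it in RUNX1 and 130 to 125 bases before it in RUNX3. The windows differ in CpG content. The IKZF1 window shown holds 0 CpG dinucleotides, the RUNX1 window 32 and the RUNX3 window shown 33, beside a median of 11.0 over all windows. At other starts of the same genes, IKZF1 had 28 and 3 CpG and RUNX3 had 13. Among the windows of the other genes, CEBPA had 41 CpG, CEBPB 25 and 38 at its 2 starts, TBX21 17, IRF8 2 and 4, and CEBPE 2.

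SPI1 (ENSG00000066336, chr11:47354860-47378576 of GRCh38, minus strand) encodes PU.1, the ETS factor that myeloid and B cells require. It was listed at 0 RPKM in empty vector replicates 1, 2 and 3 and at 0 in all 3 hPRM2 libraries, and in the libraries labelled hPRM1 at 37.4, 49.1 and 58.8 RPKM, a mean of 48.4 ± 10.7 (SD, n = 3). The groups did not overlap. With the shortest annotated transcript (661 bases), 3 reads would be 0.921 RPKM in the shallowest empty vector library, so the mean was at least 52.6-fold higher. The gene most like SPI1 across the 9 libraries was IL1B, followed by ARL11 and IL16, among 14733 genes (Pearson r of log2(RPKM + 1), 0.9999 for IL16). All 3 were at 0 in the same 6 libraries and between 9.48 and 14.4 RPKM in the libraries labelled hPRM1, and 371 genes had an r of at least 0.99 with SPI1. The points of such an r share libraries and depth, and it mainly records which libraries hold the transcript.

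The C/EBP genes encode basic leucine zipper proteins that steer myeloid differentiation in turn, C/EBPα in progenitors, C/EBPε in the making of granules, and C/EBPβ and C/EBPδ in acute inflammation. Each of the 4 has 1 annotated transcript, for which the deposited values came back as whole reads, so their counting error is known. CEBPA and CEBPB each overlap antisense transcripts, and whether reads were counted by strand is not given in the sources used here.

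CEBPB (ENSG00000172216, chr20:50190734-50192689, plus strand) was at 18.4, 19.0 and 37.7 RPKM in the empty vector, at 70.3, 83.9 and 87.6 RPKM in the libraries labelled hPRM1 and at 9.94, 8.75 and 9.48 RPKM in hPRM2. These values rest on 249, 277 and 693 reads, on 703, 603 and 781 reads and on 45, 19 and 26 reads. The 3 groups did not overlap with each other, and hPRM2 was lowest. The libraries labelled hPRM1 averaged 80.6 ± 9.12 RPKM (SD, n = 3), 3.22 times the 25.0 ± 11.0 RPKM of the empty vector, which in turn was 2.66 times the 9.39 ± 0.603 RPKM of hPRM2. The upper 95% Poisson limits of the hPRM2 libraries, 13.3 to 13.9 RPKM, stayed below the lowest lower limit in the empty vector, 16.2 RPKM. BTN3A3 (r = 0.9924), ATP11A (0.9919) and VAV1 (0.9895) had the pattern most like CEBPB over the 9 libraries.

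CEBPD (ENSG00000221869) showed the highest level of the 10 genes in the libraries labelled hPRM1. It was at 3.08, 4.49 and 2.36 RPKM in the empty vector (47, 74 and 49 reads) and at 86.3, 89.7 and 99.9 RPKM in the libraries labelled hPRM1 (976, 728 and 1007 reads), a ratio of means of 27.8 without overlap. In hPRM2 it was at 0, 6.52 and 3.87 RPKM, on 0, 16 and 12 reads, and these values lay on both sides of the empty vector. In hPRM2 replicate 1, 3 reads would be 0.587 RPKM, below the lower limits of 3.73 and 2.0 RPKM in replicates 2 and 3, so the hPRM2 libraries differed by more than counting error.

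CEBPA (ENSG00000245848, chr19:33299934-33302564, minus strand) was the 1 gene whose values in the libraries labelled hPRM1 overlapped those of the empty vector. It was at 6.20, 9.72 and 7.63 RPKM in the empty vector and at 10.4, 10.4 and 9.24 RPKM in the libraries labelled hPRM1, a ratio of means of 1.27. In hPRM2 the 3 libraries spread from 10.9 through 3.13 down to 0.330 RPKM, on 69, 12 and 1 reads. The lower 95% limit of replicate 1, 8.5 RPKM, lay above the upper limits of 1.84 and 5.47 RPKM in replicates 2 and 3, so CEBPA too varied within hPRM2 by more than counting error.

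CEBPE (ENSG00000092067, chr14:23117304-23119616, minus strand) was at 0 in the empty vector and in hPRM2, and at 5.62, 0.364 and 3.81 RPKM in the libraries labelled hPRM1, from 43, 2 and 26 reads. Its mean there (3.27 ± 2.67, SD, n = 3) was at least 11.3-fold above the level of 3 reads in the shallowest empty vector library, 0.290 RPKM, whereas the 95% Poisson interval of replicate 2 alone, 0.0441 to 1.32 RPKM, included that level. Among the libraries labelled hPRM1, this 15.4-fold range was the widest of the 10 genes. Granule genes controlled by C/EBP factors were uneven in the same libraries. CAMP, the cathelicidin of secondary granules, was at 57.9, 21.6 and 24.7 RPKM, LCN2 at 53.4, 17.0 and 28.5 RPKM, and LTF (lactoferrin) at 21.4, 5.57 and 6.52 RPKM, each highest in replicate 1 as CEBPE was. The primary granule elastase ELANE, picked after its values were seen, was at 11.0, 1.22 and 5.90 RPKM.

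**Figure D1:**
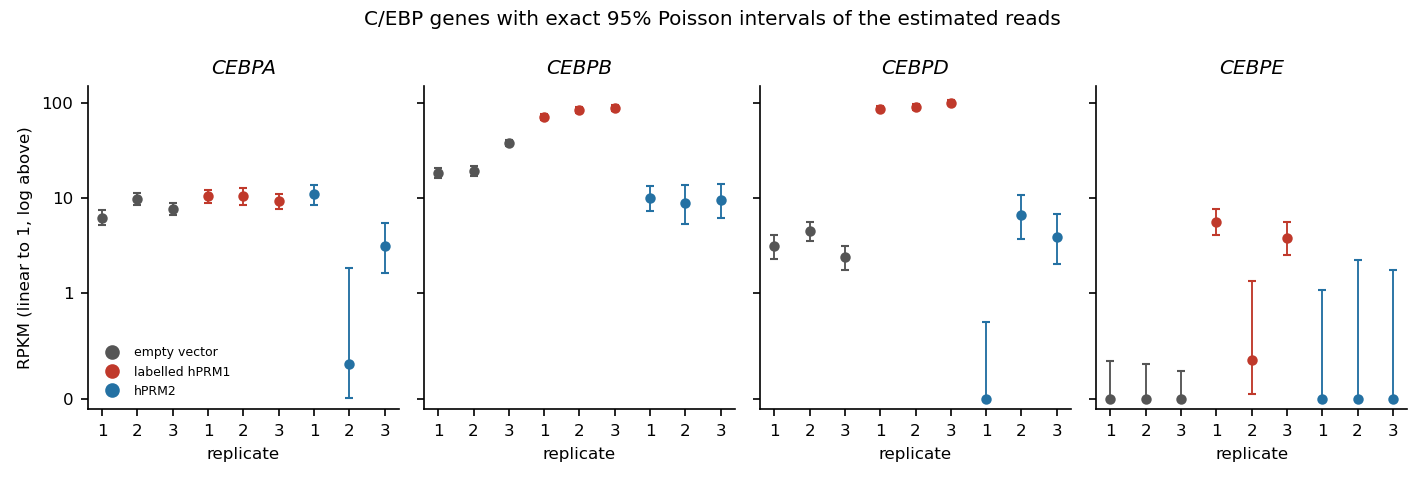
RPKM (vertical axis, linear up to 1 and logarithmic above) of the 4 C/EBP genes in replicates 1 to 3 of each group, with exact 95% Poisson intervals of the reads behind each value. CEBPB and CEBPD are highest in the libraries labelled hPRM1, CEBPA in hPRM2 runs from 10.9 to 0.330 RPKM on 69 to 1 reads, and CEBPE is above 0 in the libraries labelled hPRM1 and at 0 in the other 6.

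IRF8 (ENSG00000140968, chr16:85898803-85922609, plus strand) is an interferon regulatory factor that partners PU.1. It was at 2.81, 1.51 and 4.07 RPKM in the empty vector, at 6.93, 5.72 and 5.44 RPKM in the libraries labelled hPRM1 and at 4.48, 1.70 and 1.12 RPKM in hPRM2. With its longest transcript (3030 bases) these are whole reads: 62, 36 and 122, then 113, 67 and 79, then 33, 6 and 5. The libraries labelled hPRM1 lay above both other groups, by 2.15 times the empty vector mean. The Poisson intervals of empty vector replicate 3 (3.38 to 4.86 RPKM) and of the libraries labelled hPRM1 (from 4.30 RPKM) nevertheless met.

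IKZF1 (ENSG00000185811, chr7:50304068-50405101, plus strand), the zinc finger protein Ikaros of the lymphoid lineages, was at 0, 0.182 and 0.0618 RPKM in the empty vector and at 0 in all 3 hPRM2 libraries. In the libraries labelled hPRM1 it was at 25.9, 35.6 and 24.3 RPKM (28.6 ± 6.11, SD, n = 3). The libraries labelled hPRM1 did not overlap with either other group, and the ratio of their mean to the empty vector mean, 351, rests on an empty vector mean of 0.0814 RPKM. TBX21 (ENSG00000073861, chr17:47733244-47746119, plus strand), whose product T-bet directs T helper 1 and NK cells, was at 0, 1.06 and 0 RPKM in the empty vector and at 18.8, 16.5 and 9.56 RPKM in the libraries labelled hPRM1. With its transcript of 2572 bases the latter are 256, 161 and 116 reads, and the 1.06 RPKM of empty vector replicate 2 is 21 reads, while replicates 1 and 3 had none. TBX21 was at 0 in the 3 hPRM2 libraries, where 3 reads would be 0.487, 1.01 and 0.803 RPKM, each below the level of empty vector replicate 2.

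RUNX3 (ENSG00000020633, chr1:24899511-24965121, minus strand), the RUNX protein of cytotoxic T cells, was at 6.32, 5.32 and 6.28 RPKM in the empty vector. In the libraries labelled hPRM1 it was at 32.4, 51.0 and 36.3 RPKM (39.9 ± 9.85, SD, n = 3) and at 0, 1.96 and 1.98 RPKM in hPRM2 (1.31 ± 1.14). The 3 groups did not overlap, with 6.68 times the empty vector mean (5.97 ± 0.568) in the libraries labelled hPRM1 and an empty vector mean 4.56 times that of hPRM2. With the longest of its 5 transcripts (4340 bases), the hPRM2 values would be 0, 10.2 and 13.0 reads.

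RUNX1 (ENSG00000159216, chr21:34787801-36004667, minus strand), the core binding factor of blood stem cells, was low in the first 2 groups and uneven in the last. It was at 0.662, 0.450 and 0.0324 RPKM in the empty vector, at 1.86, 2.90 and 3.22 RPKM in the libraries labelled hPRM1 and at 0, 0 and 17.1 RPKM in hPRM2. The value of hPRM2 replicate 3, the highest of RUNX1 anywhere, cannot be turned into reads, because RUNX1 has 17 annotated transcripts of 251 to 7274 bases and the length used is not known: it would be 2.64 reads at 346 bases and 193 reads at 7274 bases. RUNX1 also overlaps 7 other genes, 4 of them on its strand. Without that library, RUNX1 was at 0 in hPRM2. The genes with the most similar pattern were CCDC153 (r = 0.9874), ENSG00000261253 (0.9809) and ENSG00000237094 (0.9512), and each of them also reached its highest level in an hPRM2 library (13.5, 9.77 and 17.0 RPKM).

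**Figure D2:**
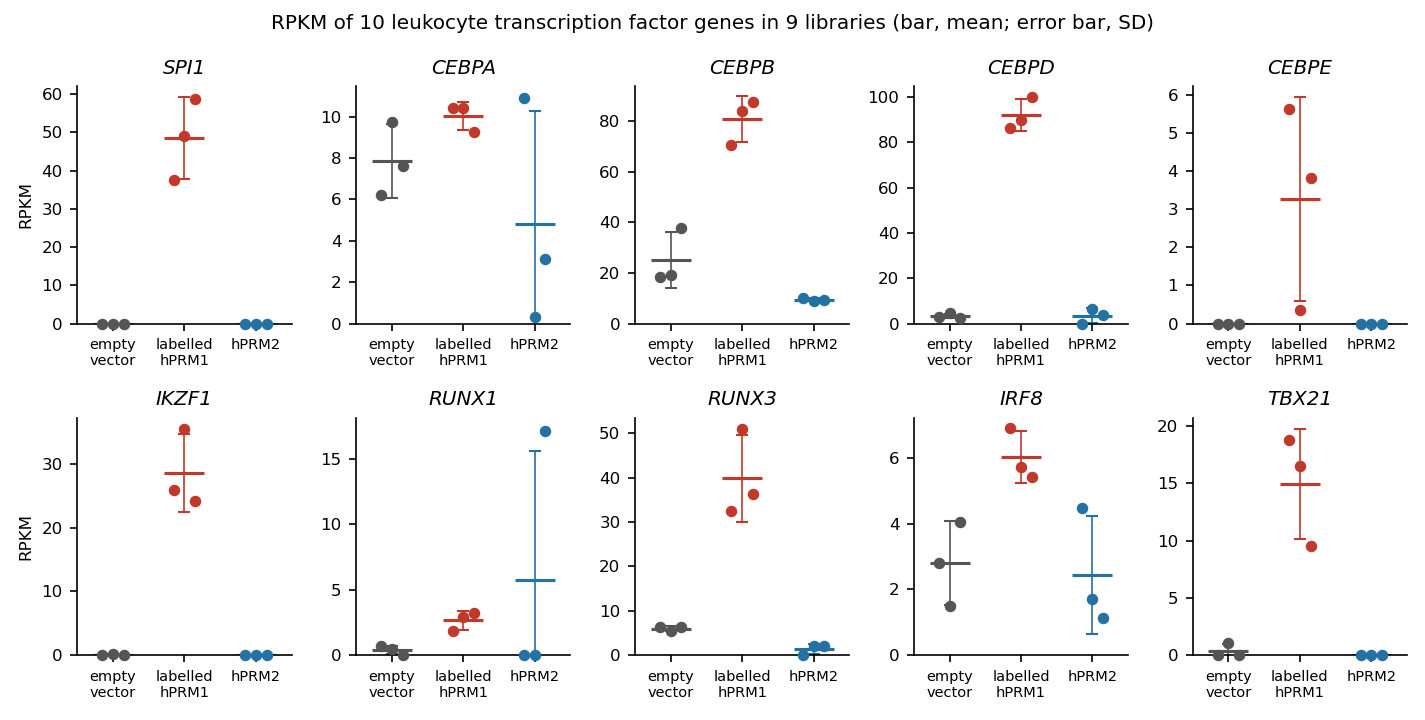
RPKM (vertical axes, each with its own scale from 0) of the 10 genes in the 3 libraries of each group, with the mean as a bar and the SD as an error bar (n = 3). In 9 of the 10 genes all 3 libraries labelled hPRM1 lie above the empty vector, CEBPA being the exception, and the single high RUNX1 point in hPRM2 is replicate 3.

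Side by side, 9 of the 10 genes were higher without overlap in the libraries labelled hPRM1 than in the empty vector. Over all 13588 genes tested in this contrast, 14.5% were, and since the genes were selected on it nothing is read from the count. In the fit with limma on log2(RPKM + 1), a gene was called where its adjusted p reached 0.05 or less with at least a 2-fold change. CEBPE did not pass the filter (1 RPKM or more in 3 or more of 6 libraries), SPI1, IKZF1, RUNX1 and TBX21 passed it only through the libraries labelled hPRM1 and so had to differ, and 7 of the 9 genes that passed were called higher and 0 lower, beside 12.9% of all tested genes called higher and 62.5% called lower. The choice of the genes fixed this count, and nothing is read from it. The fitted differences ran from 0.33 for CEBPA (SE 0.22) and 0.94 for IRF8 (SE 0.30), which were not called, through 1.41 for RUNX1 (SE 0.27), 1.72 for CEBPB (SE 0.31), 2.53 for RUNX3 (SE 0.24), 3.60 for TBX21 (SE 0.39) and 4.46 for CEBPD (SE 0.24) to 4.76 for IKZF1 (SE 0.23) and 5.60 for SPI1 (SE 0.23). The scale understates the change of low genes. The median of all tested genes was -1.72, and it moved to 0.14 with median-of-ratios rescaling and to -0.30 with quantile normalization. With these scalings CEBPA differed by 2.58 and 1.91 and IRF8 by 2.91 and 2.41, and all 9 genes were called higher. Other settings took calls away: 6 genes were called with a pseudocount of 5, where RUNX1 differed by 0.51, and 6 in 1 fit of all 9 libraries, RUNX1 losing its call in both. The per-gene test called 4, without RUNX1, RUNX3 and TBX21. Without empty vector replicate 3, IRF8 differed by 1.18 and 8 of the 9 genes were called.

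In hPRM2, whose libraries were not used to choose the genes, none of them was called. The same empty vector libraries serve both contrasts, so the hPRM2 contrast is not wholly independent of the choice. SPI1, CEBPE, IKZF1, RUNX1 and TBX21 did not pass the filter, and 0 of the 5 genes that did were called in either direction (limma, Benjamini-Hochberg), against 1.36% of all 13126 tested genes called higher and 1.37% called lower. Of these 5, CEBPB and RUNX3 had an unadjusted p under 0.05, as 3351 of all tested genes did, and a per-gene test without moderation called 0 of the 5. RUNX3 differed by -1.75 on the log2 scale (95% interval -3.24 to -0.27, adjusted p = 0.152) and CEBPB by -1.25 (-2.41 to -0.09, adjusted p = 0.175). Both lay below all 3 empty vector libraries in all 3 hPRM2 libraries, as 29.9% of all tested genes did. When all 9 libraries shared 1 estimate of the spread, both were called lower (limma, adjusted p = 0.0407 for CEBPB and 0.0443 for RUNX3). That fit called 1618 of all 13126 tested genes lower, against 180 in the main fit, so nothing is read from these 2 calls. Over the 16 alternatives for CEBPB and 15 for RUNX3 the adjusted p ranged from 0.0407 to 0.490 and from 0.0443 to 0.435. CEBPA differed by -1.12 (-3.15 to 0.92, adjusted p = 0.428), CEBPD by -0.35 (-2.33 to 1.64, adjusted p = 0.808) and IRF8 by -0.21 (-1.64 to 1.22, adjusted p = 0.835). These intervals leave room for changes of more than 2-fold in both directions for CEBPD and IRF8, and the sign of both turned with the scaling (CEBPD 0.19 and IRF8 0.13 after median-of-ratios rescaling, 0.64 for both after quantile normalization). The median of all tested genes was -0.72.

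**Figure D3:**
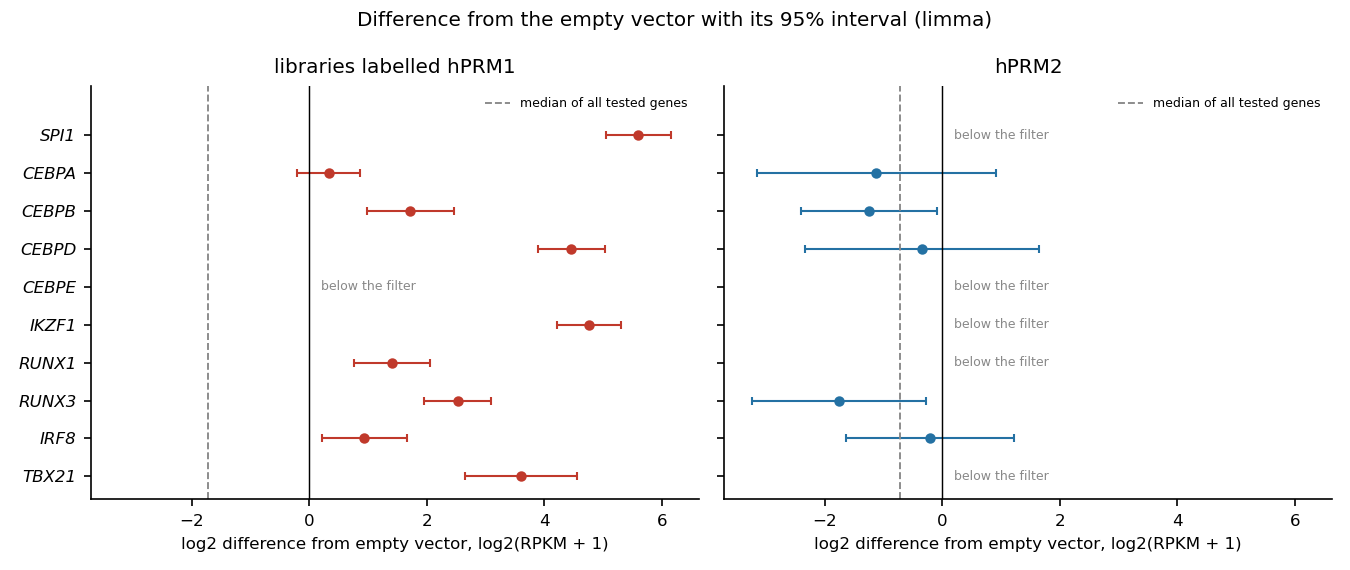
Difference from the empty vector on log2(RPKM + 1) (horizontal axis) for each gene, with its 95% interval from limma, in the libraries labelled hPRM1 (left) and in hPRM2 (right), where the dashed line is the median of all tested genes (-1.72 and -0.72). Genes below the filter have no point, and on the right the intervals of CEBPB and RUNX3 end below 0 while those of CEBPA, CEBPD and IRF8 include it.

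The order of the genes by level per kilobase was not the same in the 3 groups. In the empty vector CEBPB led with a mean of 25.0 RPKM, followed without overlap by CEBPA (7.85) and RUNX3 (5.97), whose ranges overlapped, and then by CEBPD (3.31) and IRF8 (2.80), whose ranges overlapped as well. In the libraries labelled hPRM1 CEBPD (92.0) and CEBPB (80.6) shared the top, SPI1 (48.4), RUNX3 (39.9) and IKZF1 (28.6) followed with overlapping neighbours, and TBX21 (14.9), CEBPA, IRF8 (6.03), CEBPE (3.27) and RUNX1 (2.66) came last. CEBPA thus stood behind 1 gene in the empty vector and behind 6 in the libraries labelled hPRM1, with little change in its own RPKM. With median-of-ratios rescaling and quantile normalization, CEBPA differed by 2.58 and 1.91 on the log2 scale. In hPRM2 CEBPB again had the highest mean (9.39 RPKM), and all neighbours in the order overlapped. Reads of a 3′ library do not grow with transcript length, so the division by length lowers long transcripts in such an order.

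The relatives of the 10 genes in the same protein families did not all go the same way. In the libraries labelled hPRM1, 9 of 16 tested relatives (of 22 listed) were called higher and 5 lower, with a median difference of 1.57. Over all tested genes, 12.9% were called higher and 62.5% lower. IRF1, an interferon-induced activator, was at 109, 133 and 139 RPKM there and at 10.5, 10.5 and 9.55 RPKM in the empty vector. IRF3, a factor of most cells that is activated downstream of viral nucleic acid sensors, was at 90.1, 124 and 102 RPKM beside 156, 154 and 208 RPKM and was not called. IRF2 was called higher, at 92.5, 109 and 79.6 RPKM, beside an uneven 40.6, 0.854 and 20.1 RPKM in the empty vector. Over all genes tested in hPRM2, 1.36% were called higher and 1.37% lower, with a median of -0.72. Of the relatives, 1 of 12 tested in hPRM2 was called higher and 0 lower, and their median was -0.75. That gene was SPIB, a close relative of SPI1 known from B cells, at 0 in the empty vector, at 27.6, 14.5 and 16.2 RPKM in hPRM2 and at 9.82, 15.7 and 11.0 RPKM in the libraries labelled hPRM1. It was called higher in hPRM2 (limma, adjusted p = 0.0218, 3 of 3 libraries), where SPI1 was at 0. SPIB passed the filter only through the hPRM2 libraries and so had to differ, and nothing is read from its call. Its fitted difference ran from 2.25 with a pseudocount of 5 to 7.55 with 0.1, and no fold is given, since its 8 transcripts leave the reads unknown: hPRM2 replicate 2 would hold 2.60 reads at 391 bases and 65.3 at 3791 bases. SPIB overlaps AC020909.1, another protein-coding gene on the same strand, whose reads may be shared with it. Its call was lost without any 1 of the empty vector libraries (adjusted p = 0.115, 0.107 and 0.109 without replicates 1, 2 and 3) and without hPRM2 replicate 2 (0.0588), and over 16 alternatives the adjusted p ranged from 7.18e-04 to 0.248.

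Among 34 other leukocyte factors and partners, 30 were tested in the libraries labelled hPRM1, of which 17 were called higher and 5 lower (median 1.81, or 1.47 with genes at 0 in 1 group set at the bound that 3 reads allow). The shares over all tested genes were 12.9% higher and 62.5% lower. BCL6, a repressor of germinal centre B cells and of inflammation, was at 173, 488 and 347 RPKM there and at 0.521, 3.50 and 0.0883 RPKM in the empty vector. KLF2, which keeps lymphocytes quiescent, was at 73.9, 166 and 126 RPKM beside 1.21, 4.83 and 6.92 RPKM. ID2, an inhibitor of helix-loop-helix factors, was called lower, at 218, 322 and 219 RPKM beside 806, 766 and 514 RPKM. Its difference of -1.45 on the log2 scale was smaller in size than the median of all tested genes, -1.72. In hPRM2, 0 of 21 tested genes of this list were called in either direction (limma, median -0.90). The shares over all genes tested in hPRM2 were 1.36% higher and 1.37% lower. BCL11A had the largest difference of the list, at 0 in all 3 hPRM2 libraries beside 1.04, 9.77 and 11.4 RPKM in the empty vector (limma, adjusted p = 0.0951).

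Many of the listed textbook targets of the factors were present with them, and some were not. All 13 listed PU.1 targets were tested in the libraries labelled hPRM1 and all were called higher (median 3.74, or 3.66 with genes at 0 in the empty vector set at their bound). Of these 13, 7 were at 0 in the empty vector, passed the filter only through the libraries labelled hPRM1 and so had to differ. Over all tested genes 12.9% were called higher, and nothing is read from the count. ITGB2, the β2 integrin chain of leukocytes, was at 1367, 1397 and 1096 RPKM beside 0, 0.811 and 0 RPKM, CSF3R, the G-CSF receptor, at 324, 351 and 340 RPKM beside 0.186, 0 and 0 RPKM, and NCF4, a subunit of the phagocyte oxidase, at 105, 111 and 113 RPKM beside 0 throughout. CSF3R is also among the neutrophil markers above. In hPRM2 only CSF2RA passed the filter in this list, at 0, 12 and 3.68 RPKM beside 0, 3.32 and 2.27 RPKM, and it was not called (adjusted p = 0.682). Of 11 granule genes controlled by C/EBP factors, 7 were tested in the libraries labelled hPRM1 and 6 were called higher (median 2.51, or 2.68 with bounds), and 0 passed the filter in hPRM2, where CAMP, LCN2 and LTF were at 0. Of the 7 tested, 5 were at 0 in the empty vector and likewise had to differ, so nothing is read from this count. PRTN3 was tested and not called, at 1.76, 0 and 0.247 RPKM in the libraries labelled hPRM1 beside 0, 2.86 and 2.15 RPKM in the empty vector. AZU1 and MMP8 reached at most 0.518 and 0.486 RPKM in the libraries labelled hPRM1, and BPI was at 0 in every library.

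Of 6 genes controlled by T-bet or RUNX3, 5 were tested in the libraries labelled hPRM1 and all 5 were called higher (median 2.53), beside 12.9% of all tested genes. IFNG, the listed gene that was not tested, was at 0 in every library. Of the 5 tested, 4 were at 0 in the empty vector, passed the filter only through the libraries labelled hPRM1 and so had to differ. Nothing is read from the count. GZMB, the granzyme of cytotoxic lymphocytes and an NK cell marker above, was at 49.4, 30.3 and 28.1 RPKM and at 0 in the other 6 libraries, and CXCR3, a chemokine receptor of T helper 1 cells, was at 7.20, 14.5 and 9.75 RPKM beside 0 in the empty vector. CCL5, a chemokine, differed from these in that it was also present in the other groups. It was at 32.4, 51.7 and 41.4 RPKM in the empty vector, at 231, 279 and 220 RPKM in the libraries labelled hPRM1 and at 149, 594 and 452 RPKM in hPRM2. CCL5 was called higher in hPRM2, by 3.03 on the log2 scale (limma, SE 0.55, adjusted p = 0.0424, higher in 3 of 3 libraries). In that group TBX21 was at 0 and RUNX3 at its lowest. The CCL5 call was lost without each single empty vector library (limma, adjusted p from 0.150 to 0.157) and without hPRM2 replicate 2 (0.129) or 3 (0.0772). It was also lost with a pseudocount of 0.1 (0.0514), with no filter (0.108) and with a filter at 10 RPKM (0.0529). The per-gene test gave the highest adjusted p, 0.354. The call was kept in 6 of 16 alternatives, over which the adjusted p ranged from 0.00307 to 0.354.

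**Figure D4:**
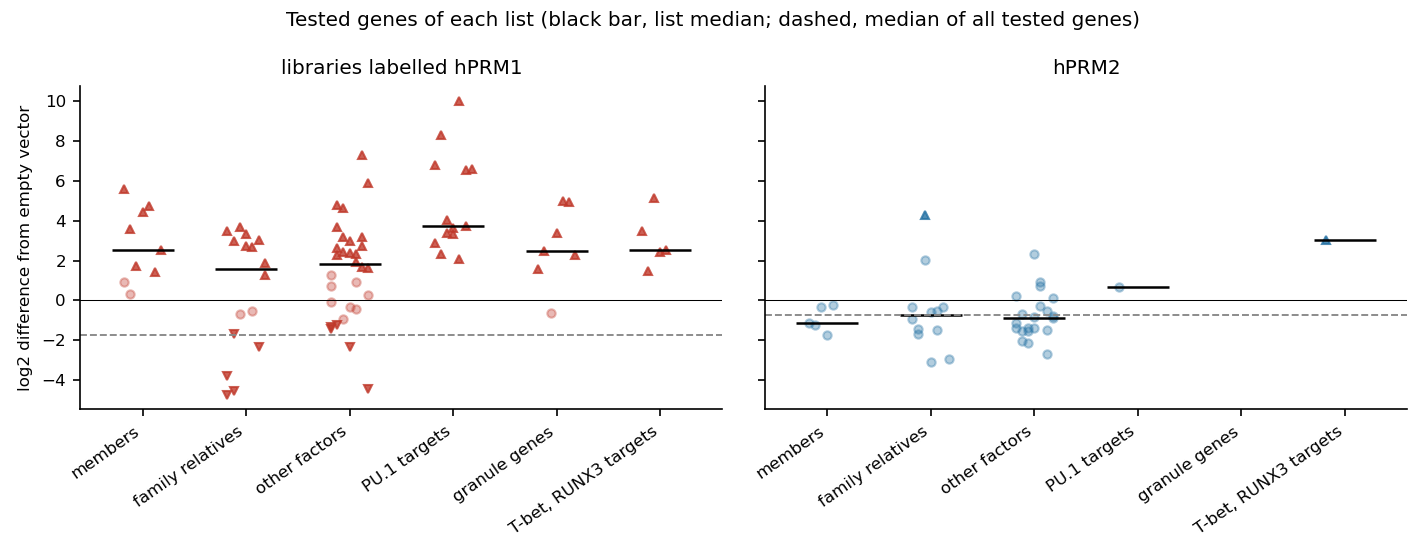
Difference from the empty vector on log2(RPKM + 1) (vertical axis) for the tested genes of each list (horizontal axis) in the libraries labelled hPRM1 (left) and in hPRM2 (right). Upward triangles were called higher, downward triangles lower and pale circles not, the black bar is the list median and the dashed line the median of all tested genes, and the 2 triangles on the right are SPIB and CCL5.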

How the data were processed

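RNA of sorted cells labelled as HEK293T was measured in 9 libraries made with QuantSeq 3′ mRNA kits. According to the methods and the labels, the authors processed reads with nf-core/rnaseq (FastQC, Cutadapt, STAR and Salmon, versions not given in the sources used here, hg38), removed mitochondrial genes and deposited RPKM values (count per library total and per kilobase) for 57338 genes without counts. Of the identifiers, 98.6% had a symbol, and 0 columns of values were left unused. Reads per library were estimated from genes with a single GENCODE 29 transcript, with 250 bases subtracted from each length. Of 7887 values under 10.5 reads, 94.6% lay within 0.1 of a whole number, but lengths of genes with several transcripts are unknown, so no count test was run.

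Comparisons with the empty vector, 1 fit for each protamine and without a replicate block, were run on log2(RPKM + 1) with limma 3.58.1 under R 4.3.3 (lmFit, eBayes with trend and robust, two-sided, Benjamini-Hochberg adjustment), in genes with at least 1 RPKM in at least 3 of 6 libraries. Genes with an adjusted p-value up to 0.05 and a 2-fold change were called. The study's thresholds were kept, with limma in place of its test. Alternatives were pseudocounts of 0.1 and 5, other filters, 2 rescalings, 1 fit of all 9 libraries, a replicate block, no fold threshold, the per-gene test of the methods and leaving out each library. Python 3.11.15 with pandas 2.3.3, numpy 2.4.6, SciPy 1.17.1 and matplotlib 3.10.9 served for the other values. Named genes are the 10 factors, the 3 most abundant genes of each related list, its largest hPRM2 difference and its hPRM2 calls, and the 3 genes most like SPI1, CEBPB and RUNX1. Immune receptor, HLA and Y-linked genes and XIST were left out of that search. ELANE and the listed targets that were low, absent or not called (PRTN3, AZU1, MMP8, BPI and IFNG) were added after their values were seen. The members and lists were chosen with earlier results of these data known.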

Additional observations from a re-analysis of the deposited data

How the results depend on the processing

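In the libraries labelled hPRM1, the number of the 10 factors called higher stayed within 1.5 times its value of 7 under every alternative except the per-gene test of the methods (4). With a minimum of 10 RPKM, 5 factors were tested and 5 called. Related genes called higher numbered 50 of 71, 26 of the 37 that a minimum of 10 RPKM left, and 26 of 71 with the per-gene test. Those called lower numbered 10, and 6 of 37 with that minimum, 4 with median-of-ratios rescaling or quantile normalization and 2 with the per-gene test. Over all genes, 1750 were called higher and 8491 lower, against 4434 and 3412 with median-of-ratios rescaling, 3475 and 4388 with quantile normalization, 867 and 4970 with the minimum of 10 RPKM and 791 and 3723 with the per-gene test. In hPRM2, 0 factors were called lower, and 2 in 1 fit of all 9 libraries. Related genes called higher numbered 2, of 35 tested, against 1 with a pseudocount of 0.1, no filter (61 tested) or the minimum of 10 RPKM (13 tested), 0 with the per-gene test, and 0 to 4 when 1 library was left out. Those called lower numbered 0, against 4 in the fit of all 9 libraries and 0 to 5 when 1 library was left out. Both 4 and 5 came without hPRM2 replicate 1. CEBPD, at -0.35, changed sign with median-of-ratios rescaling (0.19), quantile normalization (0.64), the per-gene test (0.05) and without hPRM2 replicate 1 (0.52). Without any 1 library CEBPD ranged from -0.93 to 0.52 and IRF8 from -0.61 to 0.07. IRF8, at -0.21, changed sign with the same rescalings (0.13 and 0.64) and without empty vector replicate 3 (0.02) or hPRM2 replicate 3 (0.07). The cause was not tested. Over all genes, 179 were called higher and 180 lower in hPRM2, against 810 and 1619 without hPRM2 replicate 1, 507 and 1618 in the fit of all 9 libraries, 342 and 70 with quantile normalization, 214 and 58 with median-of-ratios rescaling, 72 and 17 with no filter, 123 and 44 with the minimum of 10 RPKM, 0 and 9 with the per-gene test, and 10 to 40 and 2 to 44 without any other single library. A pseudocount of 5 gave 152 and 101 in hPRM2 and 1152 and 6341 in the libraries labelled hPRM1.

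Replicate numbers did not pair the libraries: deviations of same-numbered libraries correlated at -0.011, 0.042 and -0.028 for the libraries labelled hPRM1 and at -0.018, 0.093 and -0.081 for hPRM2. With a replicate block, 1783 genes were called higher and 8551 lower in the libraries labelled hPRM1, 49 and 8 in hPRM2, and 0 related genes were called in hPRM2 (SPIB adjusted p = 0.0770, CCL5 0.0682). The hPRM2 libraries, with 1270000 to 2650000 reads, limit what can be seen of low factors.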
